A study of Homo sapiens with 24 samples.

Results

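RPMI-8402 is an established human cell line of T-cell acute lymphoblastic leukaemia (T-ALL), a cancer of immature T cells, and it was compared here after treatment with the compound NVS-ZP7-3 and after its solvent dimethyl sulfoxide (DMSO). The comparison rests on 6 arrays chosen by their titles, 3 with NVS-ZP7-3 and 3 with DMSO, of 24 in the series. Both groups were kept for 16 h at 0.5% DMSO, so the compound is what the labels say differed, and no dose is given for it in the sources used here. The labels do not tell if replicates came from separate cultures. Unless the RPMI-8402 arrays alone are named, the p-values speak of the variation within groups, pooled over all 24 arrays. It is possibly technical variation only. The other 18 arrays hold TALL-1, SUPT11 and P12-ICHIKAWA, also T-ALL lines, with the same treatments. Affymetrix arrays were read as deposited log2 expression values with a floor of 2.18, which hides whatever part of a change would lie under it. Own probe sets were found for 19775 genes, of which 10661 reached log2 4 on at least 3 of the 24 arrays and were tested.

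NVS-ZP7-3 belongs to a compound series described as inhibiting SLC39A7 (ZIP7), a transporter that lets zinc out of the endoplasmic reticulum (ER) into the cytosol. When proteins misfold in the ER, the sensors IRE1 (ERN1), PERK (EIF2AK3) and ATF6 start the unfolded protein response, in which XBP1 and ATF6 raise folding, transport and degradation genes and PERK, through ATF4, raises amino acid genes and the death-linked factor CHOP (DDIT3). Notch is a surface receptor whose cleaved inner part acts as a transcription factor, and it drives MYC and much of the T lineage programme in many T-ALL lines. Sterol synthesis genes answer to SREBP factors, which are held in the ER until they are carried to the Golgi.

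The 6 arrays were alike in signal, with upper quartiles of 8.57 to 8.65 and 52.4 to 53.0% of probe sets within 0.1 of the floor. Arrays of the same group correlated at 0.9927 to 0.9977 and arrays of different groups at 0.9833 to 0.9886 (Pearson's r across genes, which are no replicates of each other). The 3' minus 5' signal of the ACTB control probe sets, which grows as RNA breaks down, was 2.06 to 2.20 with DMSO and 2.28 to 2.60 with NVS-ZP7-3, a difference of 0.302 (exact permutation test, two-sided p = 0.1, the smallest that 3 arrays against 3 allow). The same measure for GAPDH was 0.14 on all DMSO arrays and 0.14 to 0.21 with NVS-ZP7-3 (difference 0.042, exact two-sided permutation p = 0.4). Array values below are given in the order of replicates 1, 2 and 3.

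T lineage markers were present on every array, as the label of a T-ALL line asks. CD3D, a chain of the T cell receptor complex, stood at 14.65, 14.67 and 14.59 with DMSO and 14.36, 14.34 and 14.48 with NVS-ZP7-3. DNTT, the template-free polymerase of immature lymphocytes, stood at 14.88, 14.89 and 14.91 with DMSO and 14.99, 15.03 and 14.94 with NVS-ZP7-3. Of 15 T lineage markers with a probe set, 12 were at log2 4 or more on each array except NVS-ZP7-3 replicate 2, where 11 were. The cortical thymocyte markers CD1A, CD1B and CD1E lay at the floor on all 6. TAL1, a transcription factor switched on aberrantly in a large class of T-ALL, stood at 12.68, 12.33 and 12.48 with DMSO and 12.44, 12.75 and 12.30 with NVS-ZP7-3, and it lay at the floor in the other lines with DMSO.

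DMSO replicate 3 also carried transcripts of blood cells that T cells lack. HBB, the beta chain of adult haemoglobin, stood at 9.42, 2.32 and 14.65 with DMSO and 10.48, 8.63 and 12.99 with NVS-ZP7-3. LYZ, lysozyme of monocytes and neutrophils, stood at 4.28, 2.18 and 12.54 with DMSO and 6.25, 4.91 and 9.88 with NVS-ZP7-3, and FCGR3B, a neutrophil Fc receptor, at 2.18, 2.18 and 11.39 with DMSO and 2.18, 2.18 and 6.50 with NVS-ZP7-3. DMSO replicate 3 was highest for each of these genes and NVS-ZP7-3 replicate 3 was next, and HBB and LYZ were above the floor on DMSO replicate 1 and the other treated arrays too. Of 14 monocyte and neutrophil markers, 9 were at log2 4 or more on DMSO replicate 3, 3 on NVS-ZP7-3 replicate 3 and at most 1 on any other, and their summed log2 value was 86.0 and 45.6 on those arrays against 31.6 to 35.1 elsewhere. Of 8 red cell precursor markers, 4 reached log2 4 on DMSO replicate 3 and 1 or 2 on each other array, with sums of 50.0 against 25.9 to 36.5. Of 9 B cell and 10 cytotoxic cell markers, 5 each reached log2 4 on DMSO replicate 3 and 2 on every other array (sums of 38.5 against 26.3 to 29.1 and 51.0 against 30.8 to 33.8). Platelet and fibroblast or epithelial lists had 1 member each at that level on every array. Red cell markers AHSP and HBM, the monocyte marker S100A12, the B cell marker PAX5 and the cytotoxic marker GZMH lay at the floor on all 6 arrays. On DMSO replicate 3, 89 tested genes lay at least 1 above both other DMSO arrays, against 10 and 20 on DMSO replicates 1 and 2, but only 10 of the 89 were among the genes called below. The source of these transcripts was not tested. In a bulk sample, fewer cells of a type and less RNA per cell cannot be told apart. The calls and the gene list counts below were also made without DMSO replicate 3. List counts printed once are with all arrays and can differ without it.

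**Figure D1:**
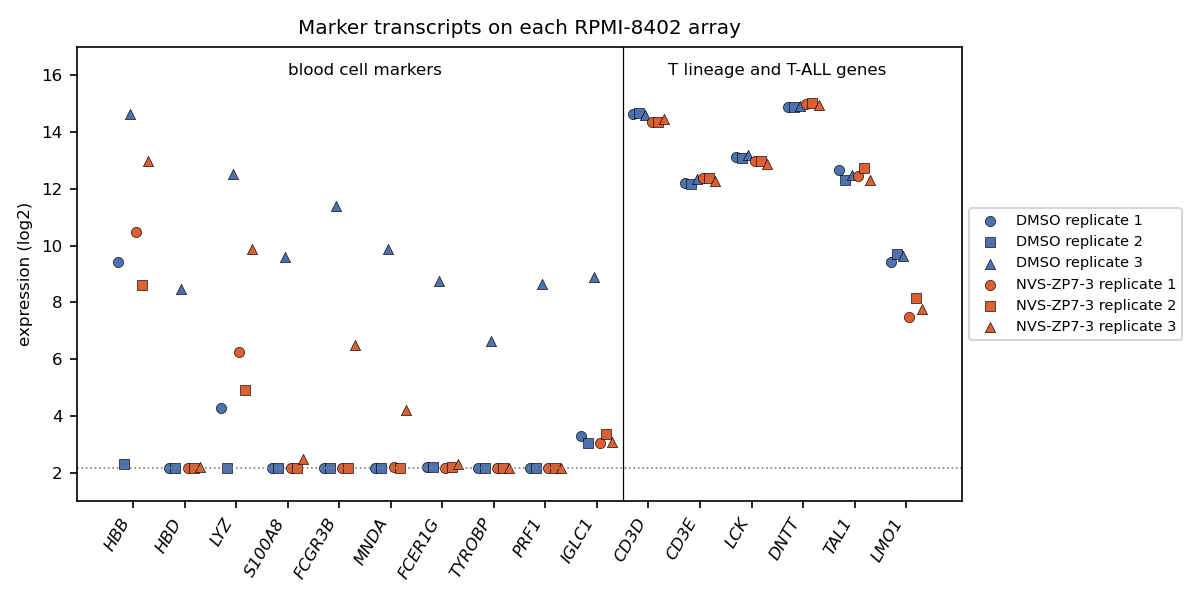
Expression (log2) of 10 blood cell markers and 6 T lineage or T-ALL genes on each of the 6 RPMI-8402 arrays, with the colour giving the treatment, the marker shape the replicate and the dotted line the floor of 2.18. Blood cell markers are highest on DMSO replicate 3 (HBB at 14.65, LYZ at 12.54), while CD3D, CD3E, LCK, DNTT and TAL1 stay above 12 on all 6.

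NVS-ZP7-3 changed a large part of the transcriptome of RPMI-8402. With limma, 3906 genes had an adjusted p below 0.05 (Benjamini-Hochberg), which is 36.6% of those tested, 1610 higher (15.1%) and 2296 lower (21.5%). In 5241 genes, 49.2% of those tested, the 3 treated arrays did not overlap the 3 DMSO arrays. The median change over all tested genes was -0.02 on the log2 scale. Large changes were fewer: 282 called genes rose and 235 fell by at least 1, of which 63 and 55 moved by at least 2. Without DMSO replicate 3, 3560 genes were called, 1396 higher and 2164 lower. Of these, 3371 were called in the same direction with all arrays and none in the opposite one, and of the 517 called changes of at least 1, 498 were still called.

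**Figure D2:**
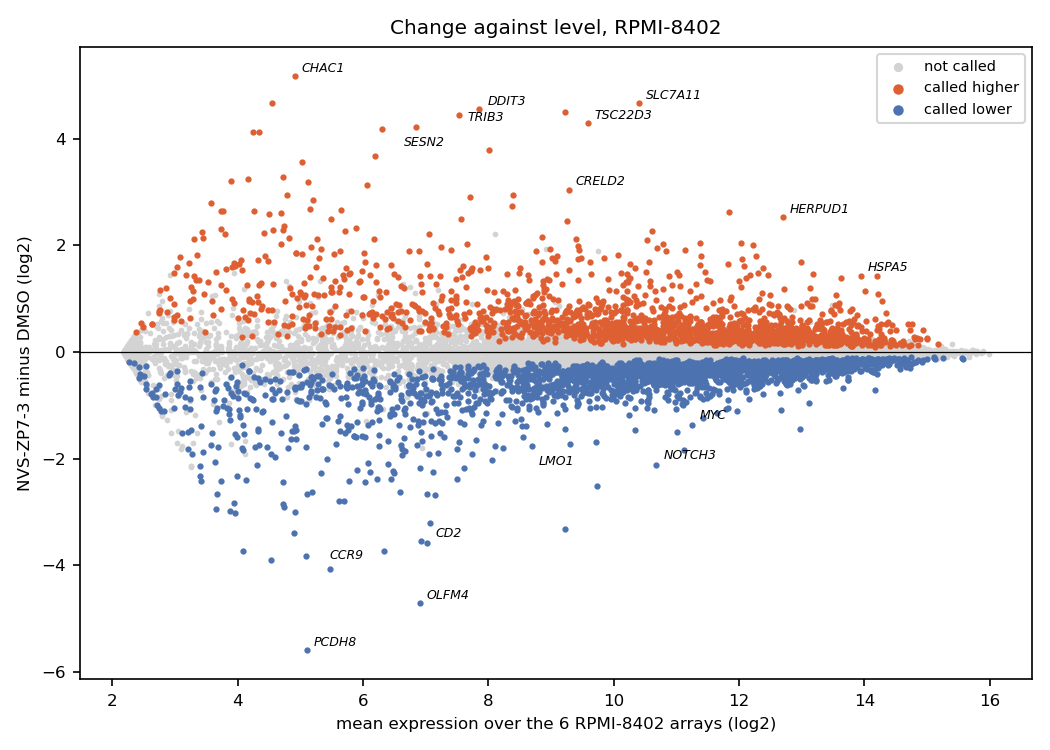
Change with NVS-ZP7-3 (log2) against mean expression over the 6 arrays (log2) for the 10661 tested genes, in orange where called higher, blue where called lower and grey where not called. CHAC1, at 5.18, and PCDH8, at -5.60, mark the upper and lower ends, and the slanted left edge is set by the floor of 2.18.

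Most genes of the ER stress and integrated stress response rose, and several of them rose from near the floor. DDIT3, which encodes CHOP, stood at 5.53, 5.52 and 5.66 with DMSO and 10.19, 10.03 and 10.18 with NVS-ZP7-3, a rise of 4.56 ± 0.14 (log2 ± SE, limma adjusted p = 2.13e-14, Benjamini-Hochberg). CHAC1, an enzyme that degrades glutathione and is induced by ATF4 and CHOP, stood at 2.57, 2.18 and 2.20 with DMSO and 7.52, 7.32 and 7.66 with NVS-ZP7-3, a rise of 5.18 ± 0.13 (limma adjusted p = 7.89e-16). In both genes the treated arrays lay close together and far above the DMSO arrays. TRIB3, a pseudokinase induced by CHOP, stood at 5.20, 5.48 and 5.26 with DMSO and 10.03, 9.71 and 9.52 with NVS-ZP7-3 (4.44 ± 0.16), and SESN2, a sestrin that restrains mTORC1, at 5.30, 4.46 and 4.46 with DMSO and 8.93, 8.93 and 9.02 with NVS-ZP7-3 (4.22 ± 0.23). Of 13 tested effectors of CHOP and ATF4, 10 rose, none fell (0 also at an unadjusted limma p below 0.05) and the median change was 1.37. With no filter on level the list held 22 members, of which 10 rose and none fell, and the median was 0.07. STC2, a secreted glycoprotein, rose by 3.21 ± 0.21, VEGFA, an angiogenic growth factor, by 2.01 ± 0.11, and WARS1, tryptophanyl-tRNA synthetase, by 1.14 ± 0.10. The death receptor TNFRSF10B (DR5), a CHOP target, rose by only 0.25 ± 0.056, and ERO1A, an ER oxidase also described as a CHOP target, was at 0.03 ± 0.047 and was not called.

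Most upstream sensors and factors of the response rose as well. Of 20 tested, 17 rose (14 without DMSO replicate 3), 1 fell and the median was 0.99. ERN1, the sensor IRE1, stood at 10.12, 9.65 and 9.90 with DMSO and 11.73, 11.89 and 11.75 with NVS-ZP7-3 (1.90 ± 0.10), and EIF2AK3, the sensor PERK, at 9.81, 9.74 and 9.76 with DMSO and 11.31, 11.48 and 11.02 with NVS-ZP7-3 (1.50 ± 0.10). ATF6, the sensor that is itself a transcription factor, rose less, by 0.40 ± 0.054. Treated and DMSO arrays did not overlap for any of these sensors. XBP1 stood at 11.22, 11.18 and 11.40 with DMSO and 12.97, 13.07 and 12.60 with NVS-ZP7-3 (1.61 ± 0.19), and the arrays measure its total transcript, not its splicing by IRE1. ATF4, which is controlled chiefly by translation, rose by 0.53 ± 0.036 from a high level. EIF2AK2, the kinase PKR that senses viral RNA, was the member that fell (-0.28 ± 0.07), and the other eIF2 kinases, EIF2AK1 and EIF2AK4, were at -0.07 and -0.02 and were not called. ATF3, a stress-induced factor, rose by 1.18 ± 0.23, and ATF5, a related factor, by 1.81 ± 0.09, although 1 of its 3 other expressed probe sets was at 0.00.

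Some of the genes that rose carry a known stress element just upstream of their start, and the stretches below show them. Sequences are from RefSeq (GRCh38.p14), 5' to 3' on the strand of the gene, and capitals mark the match. The motifs were searched on both strands in the 250 bases before each start: the ATF4 element as TTGCATCA or TGATGCAA, the ER stress element ERSE as CCAAT, any 9 bases and CCACG, and ERSE-II as ATTGG, any base and CCACG. The stretches lie at chr15:40953247-40953284 (CHAC1, + strand), chr9:125241376-125241424 (HSPA5, - strand), chr22:49918539-49918587 (CRELD2, + strand), chr12:103930201-103930354 (HSP90B1, + strand), chr16:56932010-56932050 (HERPUD1, + strand) and chr22:21642099-21642139 (SDF2L1, + strand).
CHAC1, ATF4 element: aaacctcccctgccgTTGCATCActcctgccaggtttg
HSPA5, ERSE: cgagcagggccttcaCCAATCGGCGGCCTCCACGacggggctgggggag
CRELD2, ERSE: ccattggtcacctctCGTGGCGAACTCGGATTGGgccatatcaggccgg
HSP90B1, ERSE, 2 matches: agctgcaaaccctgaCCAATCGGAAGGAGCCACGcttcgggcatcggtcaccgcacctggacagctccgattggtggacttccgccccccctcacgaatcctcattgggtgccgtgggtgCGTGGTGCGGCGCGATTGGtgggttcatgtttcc
HERPUD1, ERSE-II: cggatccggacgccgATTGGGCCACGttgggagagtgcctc
SDF2L1, ERSE-II: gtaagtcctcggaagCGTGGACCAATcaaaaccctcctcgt
The matches began 209 bases upstream of the start in CHAC1, 66 in HSPA5, 80 in CRELD2, 194 and 89 in HSP90B1, 117 in HERPUD1 and 188 in SDF2L1. Windows of DDIT3, TRIB3 and ASNS held no ATF4 element of these letters, those of DNAJB11 held neither ERSE nor ERSE-II, and those of HMGCS1 held neither the sterol element TCACCCCAC nor the SP1 box GGGGCGGGG.

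The stress elements are rare among promoters. Of 35116 starts, 0.07% had an ERSE, 0.05% an ERSE-II, 0.77% an ATF4 element, 0.36% the sterol element and 15.1% the SP1 box. Of 13 tested genes with an ERSE, 10 rose and 1 fell, with a median change of 0.74. The 10 are 76.9% of the carriers, and 15.1% of all tested genes rose. They include CALR and CANX, lectin chaperones of the ER, HSP90B1, HSPA5, CRELD2 and PDIA6, which fold proteins there, ERO1B, an oxidase of that folding, and XBP1. With an ATF4 element, 20 of 53 tested genes rose (37.7%) and 7 fell, but their median was 0.03. Among these were CHAC1 at 5.18, HERPUD1, whose window also holds the ERSE-II above, at 2.53, AARS1, alanyl-tRNA synthetase, at 1.34, SLC1A5, a glutamine carrier, at 1.28, and CEBPG, a partner of ATF4, at 0.81. Of 12 genes with an ERSE-II, 4 rose (33.3%) and 3 fell, and of 42 with the sterol element 14 rose (33.3%) and 7 fell. Both shares of genes that rose lie above the 15.1% of all tested genes, a difference that was not tested. Of 2747 with the SP1 box, 386 rose and 609 fell, a share of 14.1% higher. Such a match is a description of the letters and was not tested as a site.

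Most chaperones of the ER lumen rose. HSPA5 (BiP), the main Hsp70 of the ER, stood at 13.28, 13.23 and 13.20 with DMSO and 14.66, 14.71 and 14.63 with NVS-ZP7-3, a rise of 1.43 ± 0.067 or 2.7-fold (limma adjusted p = 7.05e-12). CRELD2, a secreted ER stress protein, stood at 7.75, 7.82 and 7.73 with DMSO and 10.81, 10.84 and 10.79 with NVS-ZP7-3 (3.05 ± 0.10), and SDF2L1, which acts with BiP, at 6.73, 7.42 and 6.88 with DMSO and 9.65, 9.67 and 9.93 with NVS-ZP7-3 (2.74 ± 0.17). All treated arrays of these genes lay above all DMSO arrays, and for HSPA5 and CRELD2 the replicates of a group spread by little. Of 22 tested members, 19 rose (18 without DMSO replicate 3), none fell (0 also at an unadjusted limma p below 0.05) and the median was 1.30. DNAJB9, a BiP co-chaperone, rose by 2.63 ± 0.12, HYOU1, a large Hsp70 of the ER, by 1.80 ± 0.056, and the prolyl isomerases FKBP14 and FKBP11 by 2.13 ± 0.18 and 1.91 ± 0.13. HSP90B1 (GRP94) rose by 0.86 ± 0.06, CALR by 0.43 ± 0.089 and CANX by 0.26 ± 0.05. SERPINH1, a collagen chaperone, SIL1, a nucleotide exchange factor of BiP, and FKBP7 were not called, at 0.04, 0.16 and -0.18.

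Among the protein disulfide isomerases and oxidases, 13 of 22 tested members rose (12 without DMSO replicate 3) and 2 fell, with a median of 0.27. ERO1B, an ER oxidase with a close paralog in ERO1A, stood at 10.62, 10.49 and 10.59 with DMSO and 12.20, 12.17 and 12.21 with NVS-ZP7-3 (1.63 ± 0.14, with another probe set at 3.37), while ERO1A was at 0.03. PDIA4 rose by 1.09 ± 0.059, P4HB (PDI itself) by 0.80 ± 0.053 (other probe sets at 1.41 and 1.68), PDIA3 by 0.80 ± 0.047 and SELENOS, a selenoprotein of ER-associated degradation, by 1.23 ± 0.12. PRDX4, a peroxiredoxin of the ER, stood at 12.63, 12.70 and 12.59 with DMSO and 12.05, 12.08 and 12.12 with NVS-ZP7-3 and fell by 0.56 ± 0.093, so that its DMSO arrays lay above its treated arrays.

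Genes that degrade misfolded ER proteins moved in part. HERPUD1, a scaffold of ER-associated degradation, stood at 11.43, 11.43 and 11.44 with DMSO and 13.96, 14.01 and 13.93 with NVS-ZP7-3, a rise of 2.53 ± 0.057 (limma adjusted p = 2.19e-16). Of 24 tested members, 13 rose (12 without DMSO replicate 3) and 4 fell, with a median of 0.26. The mannosidase-like EDEM2 and EDEM1 rose by 1.35 ± 0.087 and 0.99 ± 0.068, and SEL1L, the adaptor of the ligase HRD1, by 0.93 ± 0.054. The members that fell were UBE2G2 and UBE2J2, both ubiquitin-conjugating enzymes, and UFD1 and NPLOC4, cofactors of the segregase VCP, by 0.18, 0.19, 0.21 and 0.30, and UBE2J2 was not called with the RPMI-8402 arrays alone (limma adjusted p = 0.0591).

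Most proteasome subunits fell, by small amounts. None of 27 tested rose (0 also at an unadjusted limma p below 0.05) and 18 fell (14 without DMSO replicate 3), with a median of -0.15. PSMC3, an ATPase of the cap, stood at 12.52, 12.60 and 12.44 with DMSO and 12.09, 11.97 and 12.21 with NVS-ZP7-3 (-0.43 ± 0.092). PSMB5, a catalytic subunit, fell by 0.38 ± 0.11. With the ACTB 3' minus 5' difference as a covariate, 8 of the 27 fell, while the median was -0.16.

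The machinery that brings proteins into the ER rose in most members tested, by moderate amounts. Of 31 tested members of translocation, signal peptidase and oligosaccharyltransferase, 23 rose and none fell, with and without DMSO replicate 3, while 1 was lower at an unadjusted limma p below 0.05, and the median was 0.42. SEC11C, a catalytic subunit of signal peptidase, stood at 11.10, 11.32 and 11.09 with DMSO and 12.98, 12.86 and 12.93 with NVS-ZP7-3 (1.75 ± 0.084), while its paralog SEC11A rose by 0.17 ± 0.053. SEC61A1, which forms the channel, stood at 11.25, 11.48 and 11.27 with DMSO and 12.71, 12.50 and 12.77 with NVS-ZP7-3 (1.32 ± 0.075). Treated arrays lay above DMSO arrays in these genes. SSR3, a translocon-associated protein, rose by 1.06 ± 0.053, and of the catalytic subunits of oligosaccharyltransferase STT3A rose by 0.84 ± 0.052 and STT3B was at 0.18 ± 0.08 and was not called. The signal recognition particle was split, with SRP68, SRP19, SRP54 and SRP72 called higher (0.24 to 0.48) and SRP9 and SRP14 at -0.04 and -0.09, not called.

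Of 23 tested genes of N-glycan assembly and trimming, 10 rose and 2 fell (1 without DMSO replicate 3), with a median of 0.28. GMPPA, a regulator of GDP-mannose synthesis, stood at 7.02, 7.09 and 7.18 with DMSO and 8.61, 8.47 and 8.83 with NVS-ZP7-3 (1.54 ± 0.12). The mannosyltransferase ALG2 rose by 1.0 ± 0.07, and GFPT1, which starts the hexosamine pathway, by 0.77 ± 0.083. UGGT1, the folding sensor of glycoproteins, rose by 0.43 ± 0.053, while 1 of its 4 other expressed probe sets was at -0.08.

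Most coat and cargo proteins between ER and Golgi rose too. Of 38 tested, 26 rose (25 without DMSO replicate 3), 1 fell and the median was 0.44. SEC24D, a cargo adaptor of the COPII coat, stood at 9.51, 9.31 and 9.62 with DMSO and 11.60, 11.85 and 11.28 with NVS-ZP7-3 (2.10 ± 0.14), while SEC24A and SEC24C rose by 0.44 ± 0.064 and 0.47 ± 0.18, and SEC24B was at -0.04 and was not called. STX5, a SNARE of the Golgi, stood at 9.53, 9.50 and 9.62 with DMSO and 11.16, 11.23 and 11.0 with NVS-ZP7-3 (1.58 ± 0.12). The COPI subunit COPG1 rose by 1.22 ± 0.087, SEC23B of COPII by 0.98 ± 0.10 (its paralog SEC23A was at 0.18, not called), and the cargo receptor SURF4 by 0.86 ± 0.051. The call on SEC24C was lost without DMSO replicate 3, while with the RPMI-8402 arrays alone SEC24C was called (limma adjusted p = 0.00553). TRAPPC3, a tethering subunit, was the member that fell (-0.29 ± 0.047).

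**Figure D3:**
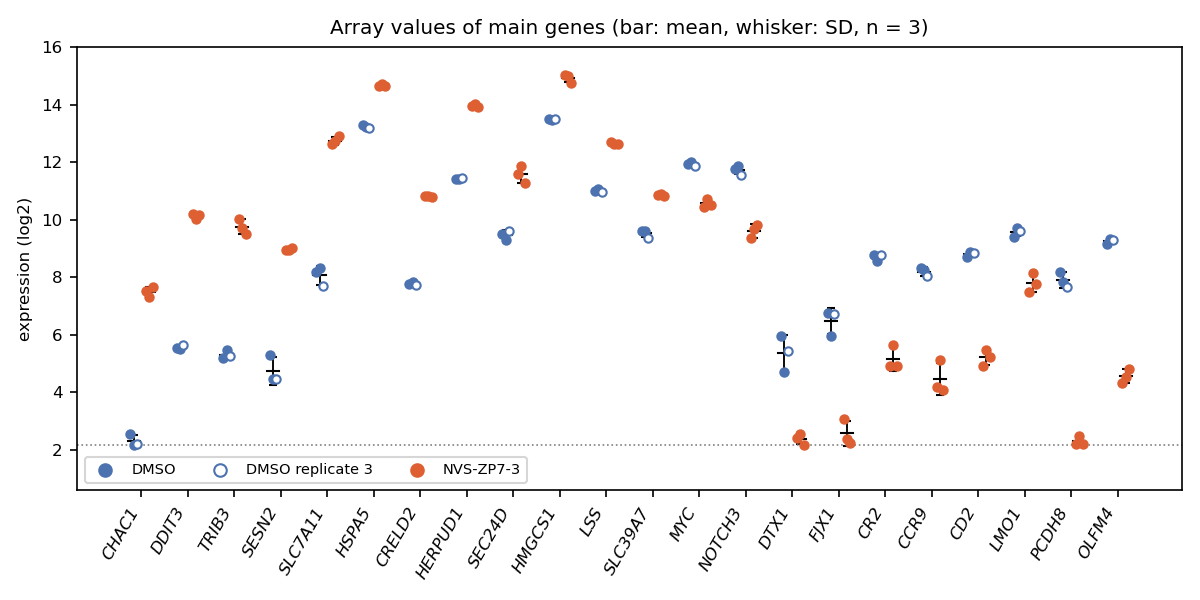
Expression (log2) of 22 named genes on each array, DMSO in blue with replicate 3 as an open circle and NVS-ZP7-3 in orange, with a bar for the mean and whiskers for the SD of 3 arrays. In these genes, chosen for large or central changes, the groups are apart, as in HSPA5 (13.20 to 13.28 against 14.63 to 14.71), and DMSO replicate 3 lies near the other DMSO arrays.

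Amino acid supply genes rose selectively. SLC7A11, the cystine carrier, stood at 8.19, 8.33 and 7.69 with DMSO and 12.62, 12.72 and 12.90 with NVS-ZP7-3 (4.68 ± 0.14, limma adjusted p = 1.81e-14). SLC3A2, its heavy chain, stood at 8.65, 8.71 and 8.46 with DMSO and 10.44, 10.35 and 10.29 with NVS-ZP7-3 (1.76 ± 0.14). SLC7A2, a carrier of arginine and other cationic amino acids, went the other way, at 7.23, 7.47 and 6.33 with DMSO and 2.84, 4.09 and 2.61 with NVS-ZP7-3 (-3.83 ± 0.27). Of 17 tested carriers, 9 rose and 2 fell, with a median of 0.26. SLC1A4, which carries alanine and serine, rose by 2.04 ± 0.054, and SLC7A5, the leucine carrier that also pairs with SLC3A2, by 0.87 ± 0.076. Of 16 enzymes of serine, asparagine and one-carbon metabolism, 7 rose and 3 fell, with a median of 0.53. ASNS, asparagine synthetase, stood at 5.12, 5.74 and 4.49 with DMSO and 6.37, 5.74 and 5.60 with NVS-ZP7-3 and was not called (0.79 ± 0.36, limma adjusted p = 0.0945). BCAT1, which starts the breakdown of branched-chain amino acids in the cytosol, rose by 0.89 ± 0.087, and its mitochondrial counterpart BCAT2 fell by 0.63 ± 0.091.

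Cytosolic aminoacyl-tRNA synthetases moved both ways, while no mitochondrial synthetase was called higher. The difference between these lists was not tested. Of 18 cytosolic synthetases and their scaffolds, 9 rose (7 without DMSO replicate 3) and 6 fell, with a median of 0.16. AARS1 stood at 10.88, 10.98 and 10.73 with DMSO and 12.21, 12.12 and 12.27 with NVS-ZP7-3 (1.34 ± 0.10), and CARS1, for cysteine, at 10.02, 9.83 and 9.88 with DMSO and 11.20, 11.34 and 11.16 with NVS-ZP7-3 (1.32 ± 0.074). VARS1, for valine, stood at 7.79, 8.18 and 7.48 with DMSO and 6.71, 7.29 and 6.46 with NVS-ZP7-3 (-1.0 ± 0.23), not called with the RPMI-8402 arrays alone (limma adjusted p = 0.0569). FARSB and FARSA, the subunits for phenylalanine, fell by 0.47 and 0.40. None of 15 mitochondrial synthetases rose (0 also at an unadjusted limma p below 0.05) and 8 fell, with a median of -0.34, and MARS2, for methionine, changed most (-1.33 ± 0.12).

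Most sterol genes rose, and the export gene of the list fell. HMGCS1, which makes the precursor of mevalonate, stood at 13.49, 13.46 and 13.50 with DMSO and 15.03, 14.98 and 14.75 with NVS-ZP7-3 (1.43 ± 0.063, limma adjusted p = 3.31e-12). LSS, which closes the sterol ring system, stood at 10.98, 11.07 and 10.95 with DMSO and 12.71, 12.62 and 12.62 with NVS-ZP7-3 (1.65 ± 0.078). ABCA1, which exports cholesterol to apolipoprotein A-I, stood at 9.27, 8.85 and 9.10 with DMSO and 6.51, 7.88 and 6.73 with NVS-ZP7-3 (-2.03 ± 0.24). Of 23 tested genes of cholesterol synthesis, uptake and control, 19 rose and 1 fell, with and without DMSO replicate 3, and the median was 0.63. STARD4, a sterol carrier, rose by 1.58 ± 0.071, DHCR7, which catalyses the last step to cholesterol, by 1.51 ± 0.093, and SQLE, squalene epoxidase, by 1.06 ± 0.056. SREBF2, the factor of the pathway, rose by 0.56 ± 0.091, and INSIG1 and INSIG2, which hold SREBP in the ER, by 0.41 ± 0.074 and 0.34 ± 0.07. PMVK, phosphomevalonate kinase, was at -0.19 and was not called.

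Of 17 genes of fatty acid synthesis, 9 rose and 1 fell, with a median of 0.29. FASN, fatty acid synthase, stood at 6.19, 6.14 and 6.25 with DMSO and 7.76, 8.38 and 7.37 with NVS-ZP7-3 (1.64 ± 0.21). The desaturase FADS2 and the elongase ELOVL6 rose by 1.38 ± 0.16 and 1.26 ± 0.057. SCD, the stearoyl desaturase, rose by 0.41 ± 0.061, and SREBF1, whose products include the fatty acid factor SREBP1c, was at 0.28 ± 0.16 and was not called. DGAT2, which makes triglycerides, stood at 5.29, 5.72 and 5.73 with DMSO and 3.71, 3.82 and 3.32 with NVS-ZP7-3 (-1.96 ± 0.20), while DGAT1 was at -0.11 and was not called.

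Some of the Notch targets fell, the receptor NOTCH3 among them. NOTCH3 stood at 11.75, 11.88 and 11.57 with DMSO and 9.35, 9.67 and 9.83 with NVS-ZP7-3 (-2.12 ± 0.14, limma adjusted p = 1.19e-09). DTX1, an E3 ligase induced by Notch, stood at 5.97, 4.72 and 5.43 with DMSO and 2.43, 2.57 and 2.18 with NVS-ZP7-3, a fall of 2.98 ± 0.33 to near the floor. FJX1, a Golgi kinase-like protein counted among Notch targets in T-ALL, stood at 6.75, 5.97 and 6.72 with DMSO and 3.08, 2.39 and 2.25 with NVS-ZP7-3 (-3.90 ± 0.17). CR2, complement receptor 2 and also listed as a Notch target in T-ALL, stood at 8.78, 8.56 and 8.77 with DMSO and 4.92, 5.64 and 4.92 with NVS-ZP7-3 (-3.54 ± 0.13), with every treated array below every DMSO array in all 4 genes. Of 23 tested targets, 11 fell (12 without DMSO replicate 3) and 1 rose, with a median of -0.46. HES1, the classic Notch effector, stood at 11.44, 11.41 and 11.53 with DMSO and 11.12, 11.19 and 11.08 with NVS-ZP7-3 and fell by 0.33 ± 0.049. The other expressed probe set of HES1 went from 12.63 to 11.72, a change of -0.91. HEY1 and HES4, of the same family, fell by 0.46 ± 0.10 and 1.91 ± 0.25. NRARP lay near the floor with DMSO and could not fall, and PTCRA, the pre-T cell receptor alpha chain, was at -0.04.

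IL7R, the receptor of interleukin 7 and a Notch target, was high on DMSO replicate 3 alone. It stood at 2.53, 2.92 and 6.97 with DMSO and 2.53, 2.18 and 2.59 with NVS-ZP7-3, and its change of -1.71 was not called (limma adjusted p = 0.0572, and 0.159 without that array). BCL6, a transcriptional repressor on the same list, stood at 3.79, 3.79 and 9.19 with DMSO and 3.89, 4.35 and 5.81 with NVS-ZP7-3 and was not called either. Of 20 tested Notch receptors, ligands and processing genes, 4 rose and 3 fell (2 without DMSO replicate 3), near the shares over all genes, with a median of 0.00. NOTCH1 stood at 11.92, 12.09 and 11.85 with DMSO and 11.52, 11.44 and 11.76 with NVS-ZP7-3 and was not called (-0.38 ± 0.22, limma adjusted p = 0.19). LFNG, which adds sugars to Notch, stood at 5.79, 6.10 and 7.58 with DMSO and 5.11, 4.34 and 5.63 with NVS-ZP7-3 (-1.46 ± 0.40, limma adjusted p = 0.00706), and without DMSO replicate 3 the change was -0.92 and not called (limma adjusted p = 0.0516). NCSTN of gamma-secretase and ADAM17, a shedding protease, rose by 0.36 ± 0.087 and 0.35 ± 0.054.

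MYC and most genes on the ribosome assembly list fell. MYC stood at 11.92, 12.01 and 11.86 with DMSO and 10.44, 10.73 and 10.52 with NVS-ZP7-3, a fall of 1.37 ± 0.10 (limma adjusted p = 5.93e-09). BYSL, which matures the small ribosomal subunit, stood at 9.68, 9.76 and 9.44 with DMSO and 8.14, 8.59 and 8.06 with NVS-ZP7-3 (-1.36 ± 0.20). Of 40 tested members of the MYC partner, nucleolus and ribosome list, 27 fell and 1 rose, with a median of -0.35, and 27 fell without DMSO replicate 3. RRP12 and MRTO4, ribosome assembly factors, fell by 1.10 and 1.08, POLR1B of RNA polymerase I by 0.94, and WDR12 and PES1, which act in 1 complex of the large subunit, by 0.89 and 0.80. MNT, which opposes MYC at shared sites, was the member that rose (0.45 ± 0.12), while its family member MXI1 fell by 0.53 ± 0.08. NPM1, the abundant nucleolar chaperone, was at -0.03 and was not called.

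Replication genes fell in most members tested and mitotic genes in few. Of 43 tested replication and S phase genes, 28 fell (26 without DMSO replicate 3) and 2 rose, with a median of -0.30. CCNE1, cyclin E1, stood at 7.45, 7.69 and 7.53 with DMSO and 6.20, 6.25 and 6.12 with NVS-ZP7-3 (-1.37 ± 0.091). GINS4 of the replicative helicase fell by 0.90 ± 0.15, CLSPN, a checkpoint adaptor, by 0.67 ± 0.16, and MCM5 by 0.53 ± 0.13. CDC6, which loads the helicase, stood at 10.45, 10.43 and 10.41 with DMSO and 11.28, 11.19 and 11.14 with NVS-ZP7-3 (0.78 ± 0.074), and CDT1, its partner, rose by 0.27 ± 0.093, a call lost without DMSO replicate 3 and with the RPMI-8402 arrays alone. Of 36 mitosis genes, 6 fell (4 without that array) and 2 rose, with a median of -0.07. The shares of 16.7% lower and 5.6% higher lie below the 21.5% and 15.1% of all tested genes. MKI67, the proliferation antigen Ki-67, fell by 0.37 ± 0.13, a call lost with the RPMI-8402 arrays alone (limma adjusted p = 0.0735), and its other expressed probe sets were at -0.03 to -0.39. PLK1, TOP2A and CCNB1 were at 0.01, -0.02 and -0.12 and were not called. Of 15 G1 regulators, 2 rose (13.3%) and 3 fell (20.0%), near the shares over all genes. CDKN1B, the inhibitor p27, rose by 0.57 ± 0.083 and BTG1 by 0.39 ± 0.049, and CDC25A, SKP2, which marks p27 for degradation, and CDK4 fell by 0.33, 0.36 and 0.42, with other expressed probe sets of SKP2 at -0.55 and -1.67. CCND2, cyclin D2, stood at 6.05, 5.78 and 8.75 with DMSO and 5.60, 5.62 and 6.15 with NVS-ZP7-3, with DMSO replicate 3 far above the rest, and was not called.

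Surface molecules of the T lineage fell in part, with some of the deepest falls of the comparison. CCR9, the receptor that guides thymocytes and gut-homing T cells to CCL25, stood at 8.31, 8.26 and 8.03 with DMSO and 4.19, 5.12 and 4.10 with NVS-ZP7-3 (-3.73 ± 0.26, limma adjusted p = 2.39e-09). CD2, an adhesion molecule of T cells, stood at 8.70, 8.89 and 8.83 with DMSO and 4.93, 5.48 and 5.24 with NVS-ZP7-3 (-3.59 ± 0.13). CD28, the costimulatory receptor, changed by -1.07 ± 0.38, and the call was lost without DMSO replicate 3 (limma adjusted p = 0.0340 with it and 0.0756 without). With the RPMI-8402 arrays alone CD28 was called (limma adjusted p = 0.00104). In CCR9 and CD2 all treated arrays lay at least 2 below every DMSO array. Of 27 tested members, 10 fell (8 without DMSO replicate 3) and 1 rose, with a median of -0.18. With the ACTB difference as a covariate 6 fell, while the median was -0.25. CD38, CD69 and CD7 fell by 0.62 ± 0.13, 0.65 ± 0.20 and 0.50 ± 0.16, and SLAMF6, a self-ligand receptor, rose by 0.73 ± 0.10. With the RPMI-8402 arrays alone CD38, CD69 and CD7 were not called (limma adjusted p = 0.0594, 0.173 and 0.202). CD5, CXCR4, CD99 and IL2RG were at 0.10, 0.03, -0.03 and 0.08 and were not called.

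The T cell receptor list moved little. Of 25 tested members, 3 rose (2 without DMSO replicate 3) and 5 fell, near the shares over all genes, with a median of 0.00. The lowest DMSO mean on the list was 2.18, the floor, where no fall can be seen. With the ACTB difference as a covariate none rose and 4 fell. CD3G and CD3D fell by 0.53 ± 0.042 and 0.24 ± 0.05, while CD3E was at 0.10 and CD247 at -0.11, not called. ZAP70, the kinase of the receptor, and PTPN6, the phosphatase SHP-1, fell by 0.56 ± 0.16 and 0.61 ± 0.20. RAG1, of the recombinase, stood at 8.10, 8.07 and 7.98 with DMSO and 6.75, 6.75 and 5.94 with NVS-ZP7-3, and its groups did not overlap. With the spread shared over the lines its change of -1.57 ± 1.30 was not called. With the RPMI-8402 arrays alone RAG1 was called (limma adjusted p = 0.0108), and it is named here after its values were seen.

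Most transcription factors of T-ALL and of the T lineage did not pass the test, and a pair of members changed strongly. Of 30 tested, 6 rose (20.0%, against 15.1% of all) and 2 fell (6.7%, against 21.5%), with a median of 0.03. With the mean of all probe sets of a gene, 7 rose and 6 fell. TAL1 was at 0.00 ± 0.084 (limma adjusted p = 1.0). LMO1, its partner in T-ALL, stood at 9.41, 9.71 and 9.62 with DMSO and 7.49, 8.16 and 7.78 with NVS-ZP7-3 and fell by 1.77 ± 0.10 (limma adjusted p = 1.67e-10), and it lay at the floor in the other lines with DMSO. TSC22D3 (GILZ), a factor induced by glucocorticoids and FOXO factors, stood at 7.19, 7.40 and 7.77 with DMSO and 11.85, 11.76 and 11.61 with NVS-ZP7-3 (4.29 ± 0.23). RUNX3 was low, at 3.07, 3.91 and 4.36 with DMSO and 2.57, 2.76 and 2.79 with NVS-ZP7-3, and fell by 1.07 ± 0.26, a call lost with the RPMI-8402 arrays alone (limma adjusted p = 0.0746). GATA3 and TCF12, an E protein bound by TAL1, rose by 0.22 ± 0.059 and 0.21 ± 0.056, and BCL11B, MYB, ETS1 and LEF1 were between -0.09 and 0.06 and were not called.

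Regulators of cell death as a list stayed near or below the shares of calls over all genes. Of 22 tested, 4 rose (18.2%, against 15.1% of all) and 3 fell (13.6%, against 21.5%), with a median of 0.01. CFLAR, the inhibitor of caspase 8, stood at 12.60, 12.49 and 12.48 with DMSO and 11.31, 11.49 and 11.44 with NVS-ZP7-3 (-1.11 ± 0.10). BCL2L11 (BIM), a BH3-only killer that CHOP can induce, stood at 9.49, 9.47 and 9.38 with DMSO and 8.58, 8.61 and 8.73 with NVS-ZP7-3 (-0.81 ± 0.079), and BID, another, fell by 0.58 ± 0.076, while its other expressed probe sets were at -1.54 and -2.04. MCL1 and BCL2, which protect cells, were at 0.02 and 0.05 and were not called, and XIAP and BIRC2, inhibitors of apoptosis, rose by 0.50 ± 0.082 and 0.54 ± 0.10.

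SLC39A7, the transporter named for the compound series, rose. It stood at 9.60, 9.61 and 9.38 with DMSO and 10.85, 10.88 and 10.82 with NVS-ZP7-3, a rise of 1.32 ± 0.10 or 2.5-fold (limma adjusted p = 1.12e-08), and its groups did not overlap. SLC39A4, a zinc importer of the plasma membrane, stood at 7.36, 7.43 and 7.55 with DMSO and 5.74, 6.11 and 5.68 with NVS-ZP7-3 (-1.60 ± 0.21). Of 17 tested zinc transporters, 8 rose (7 without DMSO replicate 3) and 2 fell, with a median of 0.07. SLC39A13, which resides in the Golgi region, rose by 0.80 ± 0.20, SLC30A7, which loads zinc into the secretory pathway, by 0.59 ± 0.066, and SLC30A1, the exporter induced by cytosolic zinc, by 0.57 ± 0.057. SLC39A10, an importer, fell by 0.53 ± 0.062. MT2A, a metallothionein that binds zinc and is induced by it, stood at 11.54, 11.57 and 11.62 with DMSO and 11.29, 11.25 and 11.47 with NVS-ZP7-3 and was not called (-0.24 ± 0.12, limma adjusted p = 0.123). Of 7 tested metallothionein and zinc sensing genes none rose (0 also at an unadjusted limma p below 0.05), and MT1G, the member that fell (-0.49 ± 0.19), was not called without DMSO replicate 3 (limma adjusted p = 0.185).

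Most members of the cytosolic heat shock list fell in the main fit, while most chaperones of the ER rose. Of 19 tested, 11 fell and 1 rose, with a median of -0.23. With the ACTB difference as a covariate 8 fell and 1 rose, while the median was -0.25. HSPA4L and HSPA4, of the Hsp110 family, fell by 0.82 ± 0.23 and 0.59 ± 0.074, and HSPE1, the mitochondrial co-chaperonin kept on this list, by 0.38 ± 0.042. The call on HSPA4L was lost with the RPMI-8402 arrays alone (limma adjusted p = 0.143). DNAJB4 rose by 0.98 ± 0.12, and HSF1, the factor of the cytosolic response, was at -0.08 and was not called. ER and store-operated calcium genes rose in 8 of 21 tested (38.1%, against 15.1% of all, and 6 genes without DMSO replicate 3). In 1 (4.8%, against 21.5%) they fell, MCU, the mitochondrial calcium channel (-0.24 ± 0.052). CALU, a calcium-binding protein of the secretory pathway, rose by 0.45 ± 0.05, and STIM1, the calcium sensor of the ER, by 0.28 ± 0.054, while the other expressed probe set of STIM1 was at 1.77.

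Genes of NRF2 and glutathione did not move together. Of 21 tested, 6 rose (28.6%, against 15.1% of all) and 7 fell (33.3%, against 21.5%, and 6 genes without DMSO replicate 3). The median was -0.01, and with the ACTB difference as a covariate 7 rose and 4 fell. Besides CHAC1 and SLC7A11, GCLC and GCLM, the subunits that start glutathione synthesis, rose by 0.37 ± 0.084 and 0.22 ± 0.068, while TXNRD1, thioredoxin reductase, fell by 0.15 ± 0.044. CHAC2, the paralog of CHAC1, stood at 11.0, 11.03 and 10.94 with DMSO and 10.05, 10.43 and 9.70 with NVS-ZP7-3 (-0.92 ± 0.15). In autophagy and lysosome genes, 8 of 30 rose (26.7%) and 2 fell (6.7%, and 3 genes without DMSO replicate 3), with a median of 0.00. WIPI1, which acts at the forming autophagosome, stood at 3.81, 4.41 and 4.83 with DMSO and 7.96, 7.71 and 8.43 with NVS-ZP7-3 (3.69 ± 0.20), and its paralog WIPI2 was at -0.13 and was not called. GABARAPL1, a membrane tag of autophagosomes, rose by 1.05 ± 0.14, and SQSTM1, the receptor p62, was at -0.17 and was not called.

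Glycolysis genes fell in 9 of 25 tested and rose in 3, with a median of -0.09. PFKM, GPI and ENO1, enzymes of the pathway, fell by 0.60, 0.51 and 0.46, and the glucose carrier SLC2A3 rose by 0.97 ± 0.13. Of 20 immediate early genes and DUSP phosphatases, 7 rose and 3 fell, with a median of 0.00. DUSP16, a phosphatase of the stress kinases JNK and p38, stood at 6.98, 7.26 and 6.50 with DMSO and 10.0, 9.64 and 9.96 with NVS-ZP7-3 (2.95 ± 0.19), while its other expressed probe sets were at 3.73 and 0.00. DUSP6, a phosphatase of ERK, stood at 5.59, 5.99 and 8.35 with DMSO and 5.02, 4.67 and 5.55 with NVS-ZP7-3 (-1.57 ± 0.43), with DMSO replicate 3 far above the other DMSO arrays. Without that array the change of DUSP6 was -0.71 and still called (limma adjusted p = 0.00552), and with the RPMI-8402 arrays alone it was not (limma adjusted p = 0.212). Of 22 interferon-linked genes, 3 rose and 3 fell (13.6% each, below the shares over all genes), with a median of -0.13. ISG20, an exonuclease, stood at 5.51, 6.71 and 6.11 with DMSO and 10.04, 9.62 and 10.06 with NVS-ZP7-3 (3.80 ± 0.24), while MX1, the interferon-induced GTPase, fell by 1.32 ± 0.31, which was not called with the RPMI-8402 arrays alone (limma adjusted p = 0.108). Of 9 long noncoding RNAs, 3 rose and 3 fell (33.3% each), and 2 fell without DMSO replicate 3. LINC-PINT stood at 2.18, 2.29 and 2.18 with DMSO and 6.78, 6.67 and 7.20 with NVS-ZP7-3 (4.66 ± 0.17). MIR646HG stood at 7.64, 7.64 and 7.22 with DMSO and 3.17, 4.03 and 3.08 with NVS-ZP7-3 (-4.07 ± 0.25).

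**Figure D4:**
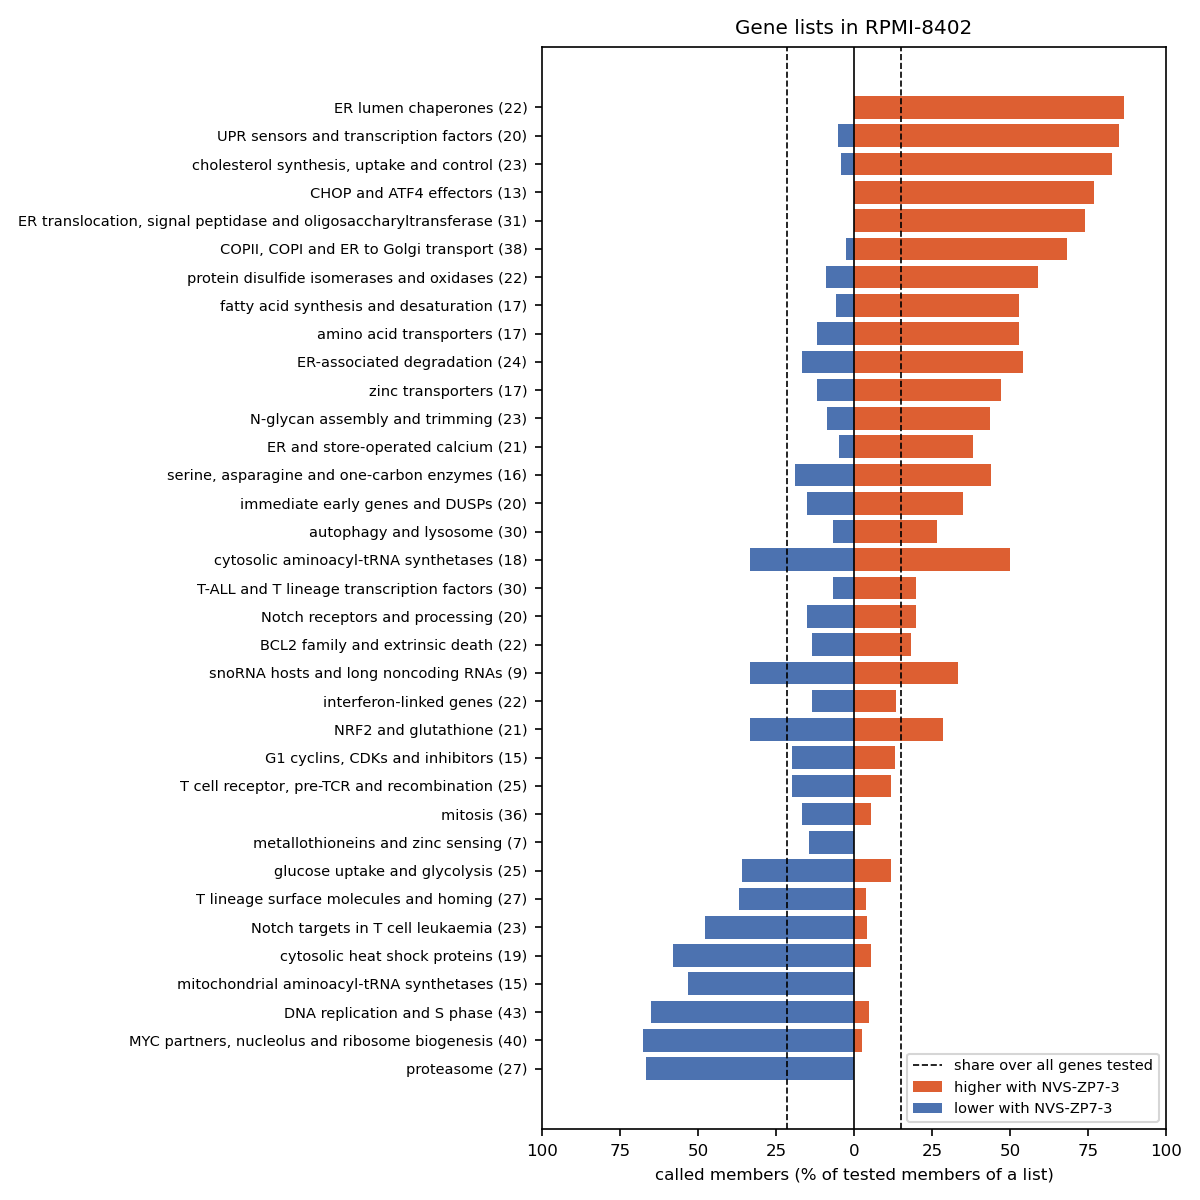
Share (%) of the tested members of each of the 35 gene lists called higher (orange, to the right) and lower (blue, to the left), with the number tested in brackets and dashed lines at the shares over all tested genes, 15.1% and 21.5%. Lists of the ER and of sterol synthesis lie at the top, with ER lumen chaperones at 86.4% higher, and MYC, replication and proteasome lists at the bottom.

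Some of the largest changes fell on genes outside these pathways. P2RX7, an ATP-gated ion channel, stood at 3.88, 4.58 and 4.15 with DMSO and 8.54, 8.29 and 8.35 with NVS-ZP7-3 (4.19 ± 0.13). ERVFRD-1, the endogenous retroviral envelope syncytin-2, stood at 7.18, 7.43 and 6.28 with DMSO and 11.55, 11.32 and 11.55 with NVS-ZP7-3 (4.51 ± 0.30). MKX, a homeobox factor of tendon, went from the floor on all DMSO arrays to 6.74, 6.59 and 5.59 (4.13 ± 0.17). ANG, angiogenin, a ribonuclease that cleaves tRNA, stood at 2.77, 3.76 and 3.22 with DMSO and 7.0, 6.86 and 6.59 with NVS-ZP7-3 (3.57 ± 0.16), again with no overlap of the groups. P2RY14, a receptor for UDP-glucose, stood at 4.13, 2.24 and 2.85 with DMSO and 6.32, 4.38 and 8.36 with NVS-ZP7-3 (3.28 ± 0.77), with treated arrays far apart, and it was not called with the RPMI-8402 arrays alone (limma adjusted p = 0.0929).

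PCDH8, a protocadherin, showed the deepest fall, at 8.19, 7.85 and 7.66 with DMSO and 2.22, 2.50 and 2.20 with NVS-ZP7-3 (-5.60 ± 0.09, limma adjusted p = 9.28e-19, and 2.19e-04 with the RPMI-8402 arrays alone). OLFM4, a secreted glycoprotein of neutrophils and gut stem cells, stood at 9.16, 9.32 and 9.31 with DMSO and 4.34, 4.54 and 4.81 with NVS-ZP7-3 (-4.70 ± 0.074). ANKRD1, a target of YAP and TEAD factors, stood at 10.76, 10.70 and 11.17 with DMSO and 7.06, 7.75 and 7.86 with NVS-ZP7-3 (-3.32 ± 0.14). In these genes DMSO replicate 3 lay close to the other DMSO arrays. TEAD4, such a factor, stood at 7.15, 7.06 and 6.84 with DMSO and 3.92, 4.78 and 3.94 with NVS-ZP7-3 (-2.80 ± 0.14), and EFNB2, a ligand of Eph receptors, changed by -2.84 ± 0.36. GABRB2, a GABA receptor subunit, stood at 7.54, 6.85 and 4.20 with DMSO and 2.85, 4.17 and 2.86 with NVS-ZP7-3 (-2.90 ± 0.53), and it was not called with the RPMI-8402 arrays alone (limma adjusted p = 0.0882). Standard errors come from a spread shared over 8 groups, which groups at the floor in other lines lower, so those of genes expressed in RPMI-8402 alone can be too small. Shared standard errors can also be too large for this line. The RPMI-8402 arrays alone gave smaller ones for CD28 (0.0658) and RAG1 (0.247).

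The response of RPMI-8402 was then set against the mean response of the other 3 lines in the same limma fit. In this contrast 1971 genes were called (18.5% of those tested), 755 higher (7.08%) and 1216 lower (11.4%) in RPMI-8402. By count, the response was higher for 16 of 22 ER lumen chaperones, 18 of 31 translocation genes, 17 of 38 ER to Golgi genes and 14 of 23 cholesterol genes, and lower for 20 of 40 MYC and ribosome genes. TALL-1 often responded as much, which the mean of the other lines hides. The change was higher in RPMI-8402 than in TALL-1 for 16 of the 22 chaperones and 18 of the 23 cholesterol genes, but for only 14 of the 31 translocation genes and 10 of the 38 ER to Golgi genes, counts that were not tested. Median changes of the last pair of lists were 0.42 and 0.44 in RPMI-8402, 0.42 and 0.54 in TALL-1, and at most 0.03 in SUPT11 and P12-ICHIKAWA. FKBP14 and FKBP11 rose by 2.48 and 2.46 in TALL-1, against 2.13 and 1.91 in RPMI-8402, and COPG1 rose by 1.22 in both. CRELD2 rose by 1.34 in TALL-1, 0.79 in SUPT11 and 1.02 in P12-ICHIKAWA, against 3.05 in RPMI-8402 (difference 2.0, limma adjusted p = 2.24e-10). HERPUD1 rose by 1.21, 1.08 and 1.15, against 2.53 (difference 1.38, limma adjusted p = 2.46e-11). HSPA5 rose by 0.40, 1.36 and 1.05, against 1.43 (difference 0.50, limma adjusted p = 1.61e-04), so SUPT11 came close to RPMI-8402 for this gene. CHAC1 changed by 3.88, 0.76 and 1.81, against 5.18 (difference 3.03, limma adjusted p = 2.81e-11), from DMSO levels of 2.25, 6.55 and 4.18, against 2.32 in RPMI-8402.

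Other genes gave other orders among the lines. XBP1 changed by 0.77, 2.21 and 3.14 in TALL-1, SUPT11 and P12-ICHIKAWA, and its difference of -0.43 was not called (limma adjusted p = 0.203). ATF3 changed by 3.68, -0.02 and 1.32 (difference -0.47, limma adjusted p = 0.244, not called). TSC22D3 rose most in TALL-1, at 5.34, and by 0.66 and 2.06 in the others. NOTCH3 changed by -0.68, 0.02 and -3.09, so its fall in RPMI-8402 lay between those of TALL-1 and P12-ICHIKAWA, while in SUPT11 its DMSO level was 2.18, the floor. SLC39A7 rose by 1.77 in TALL-1 and was at 0.05 and -0.02 in SUPT11 and P12-ICHIKAWA (difference 0.72, limma adjusted p = 3.14e-04). CCR9 rose by 1.85 in TALL-1, from 3.54, and was at 0.02 in P12-ICHIKAWA, where its DMSO level was 10.18. CD2 changed by -0.26 in TALL-1 and -0.47 in SUPT11, with DMSO levels of 11.37 and 7.56, against -3.59 in RPMI-8402.

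**Figure D5:**
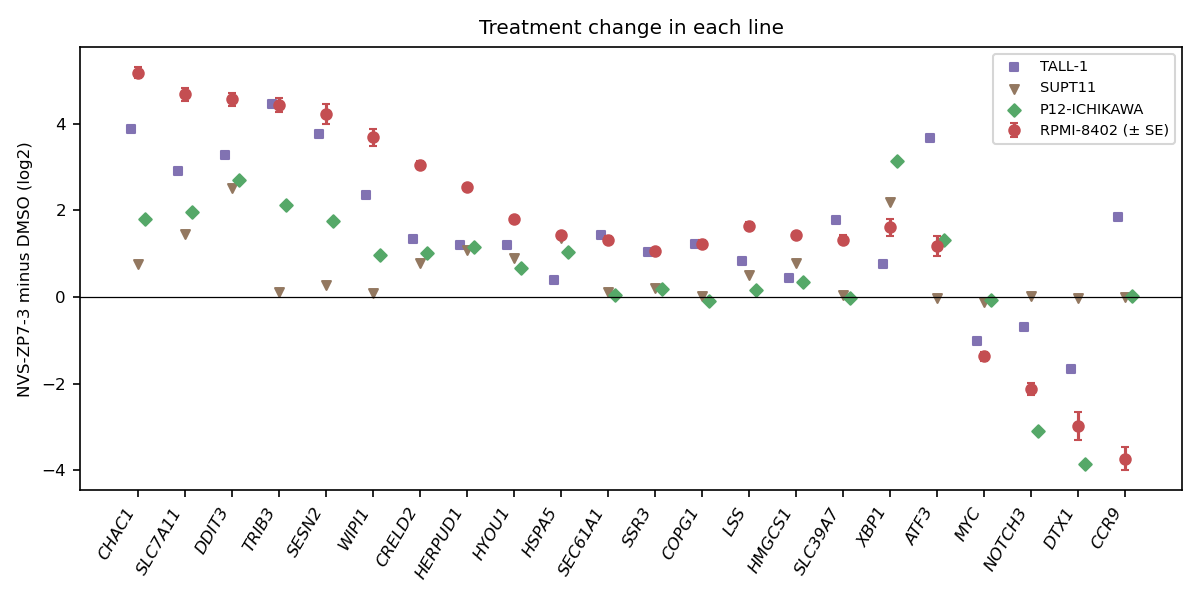
Change with NVS-ZP7-3 (log2) of 22 named genes in each line, with the SE drawn for RPMI-8402. CRELD2 (3.05) and HERPUD1 (2.53) rise most in RPMI-8402, COPG1 rises by 1.22 in RPMI-8402 and TALL-1 alike, XBP1 is higher in SUPT11 and P12-ICHIKAWA, and CCR9 falls in RPMI-8402 and rises in TALL-1.

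Several falls could not have been seen elsewhere. PCDH8, OLFM4, FJX1, SLC7A2, ANKRD1, KANK4, GLT1D1, LDLRAD3, EFNB2 and TEAD4 lay at 2.18 with DMSO in all 3 other lines, where only a rise could show. For PCDH8 and OLFM4 the difference from the other lines, at -5.6 and -4.7, equalled the change in RPMI-8402. Calls overlapped most with TALL-1: 2043 genes were called in the same direction in both, 52.3% of the calls in RPMI-8402 and 45.7% of the 4471 in TALL-1, and 143 in opposite directions. P12-ICHIKAWA shared 531, 13.6% of the RPMI-8402 calls and 63.1% of its own 841. SUPT11 shared 87, 2.2% of the RPMI-8402 calls and 46.3% of its own 188. The lines share no array, and overlaps are a description of calls made at the same threshold.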

How the data were processed

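Values are the log2 expression levels that the authors deposited, for 54675 probe sets on 24 arrays. GCRMA and limma are the tools in the submitters' processing notes, with versions and settings not given in the sources used here. GCRMA models background from probe sequence and places undetected probe sets at a common floor, so changes of genes near 2.18 are understated. Arrays have no count of depth, and their number limits the precision.

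Gene names came from the platform's annotation, with symbols updated by gene identifier in RefSeq (GRCh38.p14). A probe set had 1 gene in 41097 cases, several in 1801 and none in 11777, and 41043 of the first kind matched by identifier while 54 kept the older symbol. The brightest probe set by its mean on the 24 arrays represented its gene (19775 genes, 10523 with more than 1 probe set). Testing was limited to genes that reached log2 4 on 3 or more arrays, whatever the line. Some tested genes therefore lay at the floor in RPMI-8402 with DMSO, where they could not fall. Samples were grouped by title. limma 3.58.1 (R 4.3.3; lmFit and eBayes) estimated the mean of each of the 8 groups from the 24 arrays, leaving 16 residual degrees of freedom. A gene was called when its Benjamini-Hochberg adjusted p, over the 10661 genes tested, was below 0.05. The comparison, its members and the 35 gene lists were chosen with earlier results of these data known.

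Named genes were the 15 largest rises and falls that were called with and without DMSO replicate 3, did not overlap between groups and reached log2 6 in the higher group; the 8 largest differences of each sign from the other lines; up to 6 called members a list; and key genes chosen by name, 1 of which was not analysed here. Other list members were named as counterparts, markers or exceptions after their values were seen. The steps were tested on simulated arrays in which 200 of the 10661 genes changed: 82% were recovered at a log2 change of 1 and 58% at 0.5, with 9 false calls. Simulated arrays had independent noise, no floor, no change in the other lines and far fewer changed genes than were called here. These rates therefore need not hold for the data. Alternatives were other filters, probe set means, other scalings, a replicate block, an intensity trend, HBB or ACTB covariates, a fit of the 6 arrays alone, a threshold of 0.01 and leaving out each array.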

Additional observations from a re-analysis of the deposited data

Results flagged for a closer look

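Each result here is a difference between the response of RPMI-8402 and the mean response of TALL-1, SUPT11 and P12-ICHIKAWA that passed the limma test of that difference (Benjamini-Hochberg), and each is among the 8 widest of its sign. The response was higher in RPMI-8402 by 4.12 on the log2 scale for MKX, 3.77 for P2RY14, 3.46 for LINC-PINT, 3.39 for LTBP1, 3.36 for LINC03040, 3.14 for CA2, 3.03 for CHAC1 and 2.97 for ERVFRD-1. LTBP1, which tethers latent TGF-beta to the matrix, stood at 3.66, 3.35 and 3.55 with DMSO and 6.66, 6.80 and 6.66 with NVS-ZP7-3. CA2, a carbonic anhydrase, stood at 4.49, 4.07 and 4.94 with DMSO and 7.66, 7.86 and 7.40 with NVS-ZP7-3, and it lay at 2.18 with DMSO in the other lines.

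The difference was -5.60 for PCDH8, -4.70 for OLFM4, -4.35 for CCR9, -3.90 for FJX1, -3.83 for SLC7A2, -3.47 for MIR646HG, -3.40 for LDLRAD3 and -3.38 for CR2. PCDH8, OLFM4, FJX1, SLC7A2 and LDLRAD3 lay at the floor with DMSO in the other lines, where no fall can be seen. CCR9 fell in RPMI-8402 and rose by 1.85 in TALL-1. MIR646HG changed by -1.54 in P12-ICHIKAWA, from a DMSO level of 7.37.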

How the results depend on the processing

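The 6 RPMI-8402 arrays alone gave 3526 calls, and 1743 with the replicate block added (786 higher, 957 lower), a fit with 2 fewer residual degrees of freedom. Across the tested genes, deviations of same-numbered arrays of RPMI-8402 correlated at only -0.016, 0.033 and 0.043. HBB and LYZ, however, were highest on replicate 3 and lowest on replicate 2 in both groups. Whether arrays of the same number belong together was not tested. The replicate block within each line gave 3603 calls, and 1573 for the difference from the other lines. At a threshold of 0.01, 2753 genes and 1010 differences from the other lines were called in place of 3906 and 1971. Leaving out each RPMI-8402 array in turn gave 3254 to 3610 calls (1337 to 1584 higher, 1863 to 2164 lower) and 1430 to 1754 differences. Under the other filters, scalings, probe set means, trend and covariates the counts stayed within 1.5 times the main ones, from 3116 with the ACTB covariate to 4129 after quantile normalization. Higher genes made up 41.2% of calls, and 45.7% after quantile normalization. No named gene that was called turned its direction. Of 226 named genes, 61 lost their call in the fit of 6 arrays with the block, 26 with the ACTB covariate, 20 in the fit of 6 arrays, and 7 to 12 when an array was left out. The median change of the T-ALL factor and long noncoding RNA lists turned negative with the mean of all probe sets (-0.06 and -0.12). Changes near the floor are bounded by it, and 3 arrays a group limit what can be called.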
